A study of Drosophila melanogaster with 30 samples.

Results

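The earliest point of a sleep deprivation experiment in the fly brain was examined here: 3 arrays of flies kept awake for 2 h against 3 arrays of flies that slept through the same 2 h. These 6 arrays were chosen by their titles, out of 21 in the deprivation experiment and 30 in the whole series. All flies were virgin Canton-S females, a wild-type strain of Drosophila melanogaster, 5 days old, raised at 25 °C in cycles of 12 h of light and 12 h of dark. Each array held RNA from a separate pool of 139 to 193 dissected whole brains on an Affymetrix Drosophila Genome 1.0 chip. The deprived flies were kept awake by hand stimulation of their monitors from ZT14, the start of consolidated sleep (ZT counts hours from lights-on), and both groups were killed at ZT16. Flies killed at ZT14 gave the level before the treatment. Pairs deprived for or sleeping through 4 and 6 h were used to ask whether an effect was larger at 2 h. Flies stimulated by hand for 4 h in their active period, from ZT10 to ZT14, and undisturbed wake flies of the same hour showed what handling alone did. In RNA from a whole brain, fewer cells of a type and less RNA per cell cannot be told apart.

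Sleep loss is followed in fly and mammalian brains by a rise of activity-regulated genes, transcription factors and signalling genes that firing neurons switch on within minutes to hours. Longer wakefulness has been linked to chaperones of the unfolded protein response, to immune genes and to energy and protein synthesis. The comparison at 2 h asks which of these transcripts stood apart first.

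Markers of neurons and glia gave signal in these brains: 9 of 11 neuronal and 17 of 18 glial markers were brighter than the median probe set in the mean of the arrays, and so were 8 of 16 eye markers. Opsins were not analysed here. Deprived replicate 2 stood apart from the other arrays. Its correlations with the other 2 h arrays ran from 0.974 to 0.989, against 0.987 to 0.997 among the remaining pairs, and it had the largest difference between 3' and 5' actin probe sets of the 6 (2.70, against 1.78 to 2.52), a measure of RNA quality. The 3 deprived arrays were hybridised in runs 2 and 4 and the 3 sleeping arrays in run 3, so no run held both groups. A fit with run as a block therefore reached the 2 h difference only through other groups that spanned runs. Its values are no direct check within a run. Chip lots were mixed, with 1 array of each group from lot 2 and 2 of each from lot 3. No array duplicated another. The median difference changed sign for 10 of the 44 gene lists described below without deprived replicate 2, and for 22 of 44 with run as a block, and those values stand beside the lists.

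At 2 h 1 gene rose and none fell. The gene was sr (stripe), a transcription factor of the EGR zinc finger family and one of the activity-regulated genes. Its log2 values were 8.19, 8.29 and 8.27 in the deprived arrays and 6.20, 5.93 and 6.20 in the sleeping arrays. The deprived arrays lay close together, and the groups were far apart. The difference of 2.14 ± 0.16 (SE), with a 95% interval from 1.80 to 2.48, was a 4.41-fold rise (limma, adjusted p = 6.6e-07). At ZT14 sr stood at 6.14, 6.27 and 5.98, the level of the sleeping flies. The deprived flies lay 2.12 ± 0.16 above that start (limma, adjusted p = 7.67e-07), whereas the sleeping flies differed from it by -0.02 ± 0.16 (unadjusted p = 0.911). The difference was 2.07 between the arrays of lot 2 and 2.18 between those of lot 3, and 2.67 with hybridisation run as a block (adjusted p = 0.000154). Of 13966 probe sets tested, sr was the 1 past an adjusted p of 0.05 (0.00716%).

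**Figure D1:**
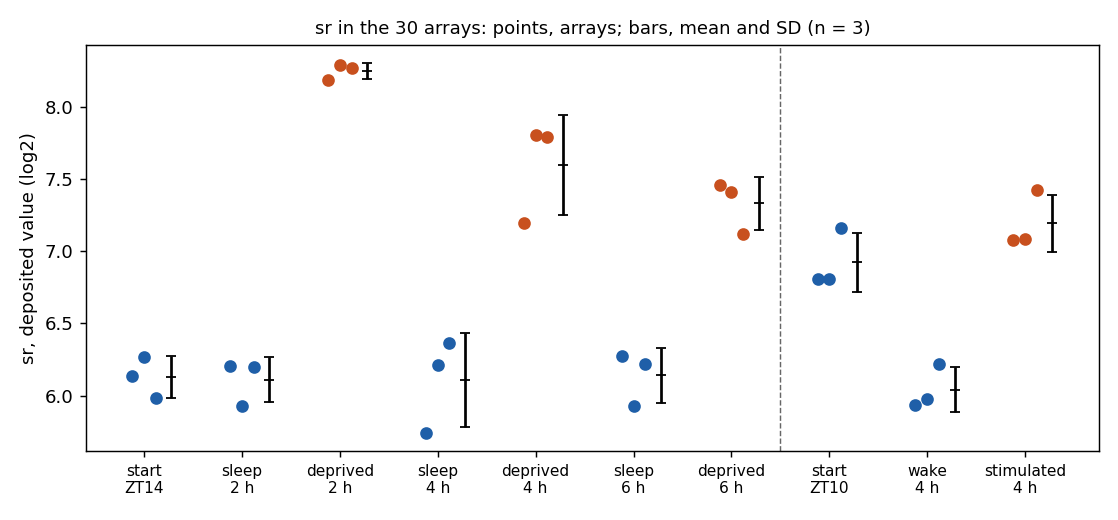
Deposited log2 values of sr in all 30 arrays by group, with the mean and SD of the 3 arrays beside the points; the dashed line separates the deprivation experiment from the active period experiment. The 3 deprived 2 h arrays, between 8.19 and 8.29, are the highest of the series, and the sleeping and ZT14 arrays lie near 6.

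At later times sr stayed above the sleeping flies, by a smaller amount. It read 7.20, 7.81 and 7.79 in flies deprived for 4 h, against 5.74, 6.22 and 6.37 in their controls, a difference of 1.49 ± 0.16 (limma, adjusted p = 0.000269; 2 probe sets passed at 4 h, 0.0143%). After 6 h it read 7.46, 7.41 and 7.12 against 6.27, 5.92 and 6.22, a difference of 1.19 ± 0.16 (limma, adjusted p = 0.00366; 13 probe sets passed, 0.0931%). All deprived arrays lay above all sleeping arrays at each time. The effect at 2 h exceeded the mean effect at 4 and 6 h by 0.80 ± 0.20, with an interval from 0.38 to 1.22 (unadjusted p = 0.000757), which missed the threshold after adjustment over all probe sets (0.999). Active period stimulation also came with more sr: 7.08, 7.08 and 7.42 in stimulated flies against 5.93, 5.97 and 6.22 in wake flies, a difference of 1.15 (limma, adjusted p = 0.00142). Flies taken at ZT10, before that stimulation, already read 6.80, 6.81 and 7.16. One sleeping 6 h sample is called deprived in its source name and sleeping in its title. It was used as sleeping, and its sr value, 6.27, lay with the other sleeping arrays.

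The rest of the transcriptome moved little. Over all probe sets the differences had an SD of 0.15, a 5th percentile of -0.24 and a 95th percentile of 0.20. Differences beyond 1 log2 unit were found for 10 probe sets, 8 higher and 2 lower in deprived flies, and sr had the smallest standard error of them (0.16, against up to 0.75). An unadjusted p under 0.05 was reached by 1164 probe sets (8.33%), 608 higher (4.35%) and 556 lower (3.98%). The groups did not overlap for 1678 probe sets (12.0%), 999 higher (7.15%) and 679 lower (4.86%). Group labels set at random would separate 10% of probe sets with 3 against 3 arrays, 5% in each direction. The genes named next, other than sr, did not pass the adjusted threshold with all arrays. They are the 10 smallest p-values in each direction among probe sets with a single gene name. That choice favours groups that do not overlap, so the lack of overlap is no separate support.

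**Figure D2:**
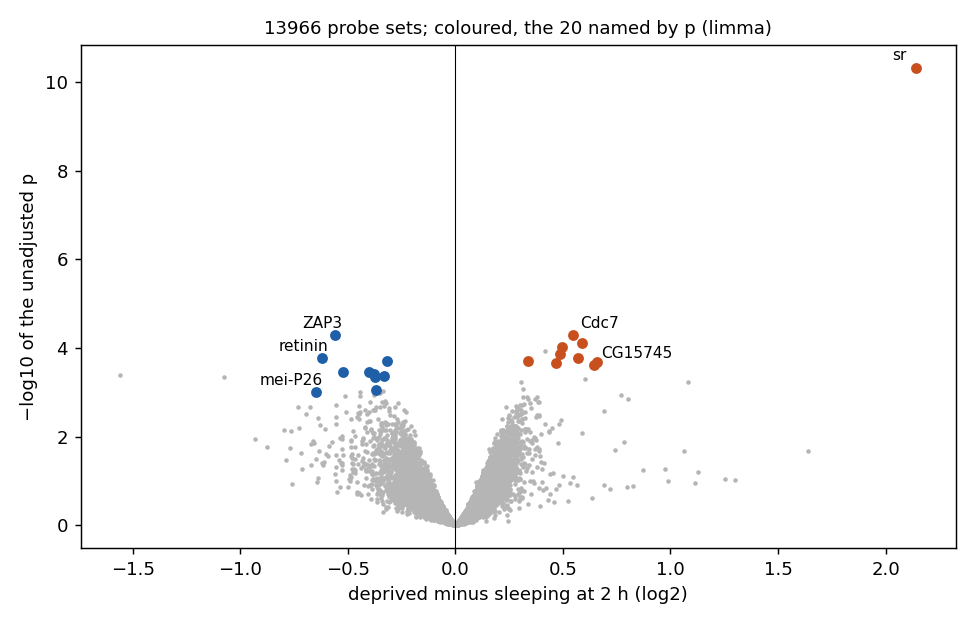
Difference at 2 h (deprived minus sleeping, log2) against −log10 of the unadjusted p for 13966 probe sets, with the 20 named probe sets coloured (orange higher, blue lower). sr stands alone at 2.14, and the other named genes lie between -0.65 and 0.66.

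Among the genes higher in deprived flies, Cdc7, a kinase that starts DNA replication in dividing cells, had the smallest p after sr. It read 5.27, 4.85 and 5.28 in deprived against 4.51, 4.49 and 4.76 in sleeping flies, a difference of 0.55 ± 0.11 (limma, adjusted p = 0.22). The groups did not overlap, and replicate 2 was the lowest deprived array. Without that array Cdc7 rose by 0.69 (adjusted p = 0.00298). A second probe set of Cdc7 differed by 0.23 (unadjusted p = 0.0253). CG15745 read 4.41, 3.77 and 4.47 in deprived against 3.57, 3.52 and 3.63 in sleeping flies, again with replicate 2 nearest to them. Its difference of 0.64 ± 0.14 (adjusted p = 0.228) became a rise of 0.87 (adjusted p = 0.00183) without replicate 2.

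CG17778, another activity-regulated gene of flies, read 6.24, 5.82 and 6.14 in deprived and 5.51, 5.14 and 5.58 in sleeping flies, 0.66 ± 0.14 higher (limma, adjusted p = 0.22). CG4991, of a family of amino acid transporters, read 7.46, 7.45 and 7.74 against 6.85, 6.96 and 7.12, 0.57 ± 0.12 higher. St3, a sulfotransferase, read 7.45, 7.58 and 7.39 against 7.14, 7.22 and 7.04, 0.34 ± 0.07 higher. In all of them every deprived array lay above every sleeping array. The remaining genes of this direction were CG32091 (0.59), CG2816 (0.49), CG15594 (0.49) and CG13116 (0.47), all with replicate 2 as the highest deprived array and with groups that did not overlap. The second probe set of CG32091 differed by 0.20 and that of St3 by -0.04.

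Of the genes lower in deprived flies, ZAP3 had the smallest p, with 5.23, 5.08 and 5.41 in deprived and 5.70, 5.91 and 5.79 in sleeping flies, a difference of -0.56 ± 0.11 (limma, adjusted p = 0.22). Its other probe sets differed by -0.18 and -0.01. retinin, a protein of the corneal surface of the eye, read 7.16, 7.75 and 7.22 against 7.72, 8.27 and 8.02, a difference of -0.62 ± 0.13 (adjusted p = 0.22). Deprived replicate 2 lay just above the lowest sleeping array, so the groups overlapped, and without it retinin fell by 0.81 (adjusted p = 0.00415). cactin, named for its binding to the NF-kappaB inhibitor Cactus, read 5.29, 5.36 and 5.29 against 5.61, 5.62 and 5.67, a tight difference of -0.32 ± 0.07.

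Genes of protein folding and of the nuclear envelope were among the others. Sgt1, a partner of the chaperone Hsp90, differed by -0.38 ± 0.09 (limma, adjusted p = 0.29), with 4.96, 5.15 and 5.09 against 5.40, 5.51 and 5.43. Nup358, a protein of the nuclear pore, differed by -0.37 ± 0.09 and Ankle2, which acts in rebuilding the nuclear envelope, by -0.33 ± 0.08. LysRS, which charges tRNA with lysine, differed by -0.37 ± 0.09 (adjusted p = 0.454). mei-P26, a TRIM-NHL protein known from the germline, differed by -0.65 ± 0.17, with replicate 2, at 5.89, far below the other deprived arrays at 6.64 and 6.57. CG6191 (-0.52) and CG5687 (-0.40) complete the 10. All but retinin had groups that did not overlap.

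**Figure D3:**
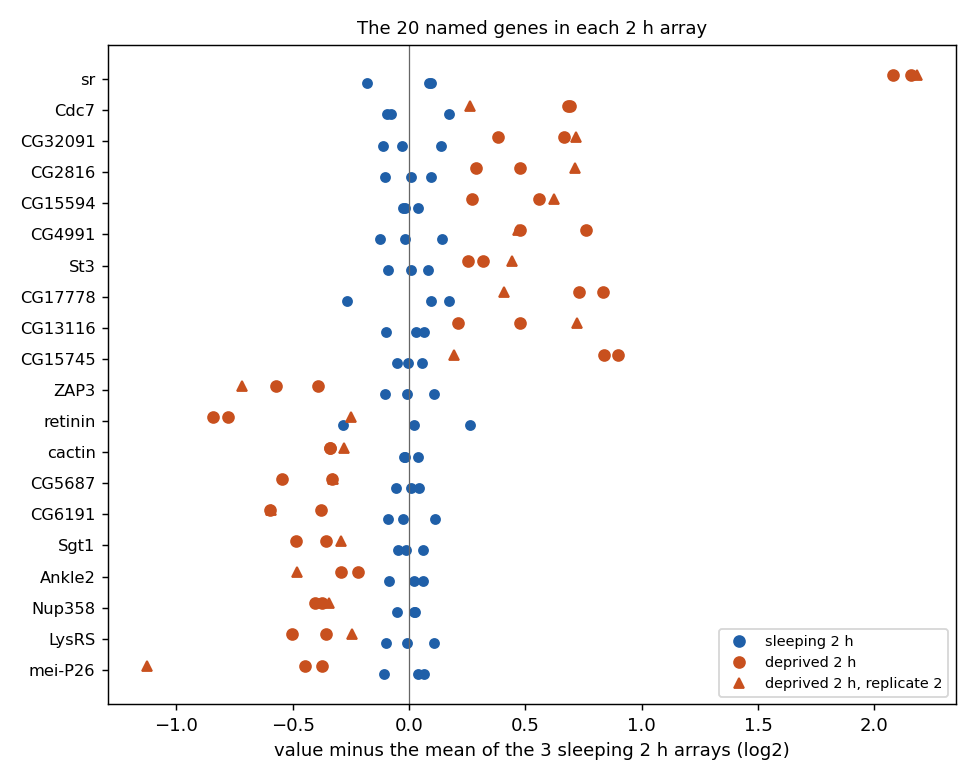
Log2 value of each 2 h array minus the mean of the 3 sleeping arrays for the 20 named genes; orange, deprived, with replicate 2 as a triangle, and blue, sleeping. sr lies more than 2 log2 units from the sleeping arrays, and replicate 2 is the deprived array nearest to them for Cdc7, CG15745 and retinin.

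With 1 probe set per gene, the brightest, 10844 genes were named, of which 4.43% were higher and 4.14% lower at an unadjusted p under 0.05, and 54.4% had a positive difference. These shares depended on brightness. Among the 3492 dimmest probe sets 70.4% of differences were positive, with a median of 0.045, and among the 3492 brightest 33.6%, with a median of -0.060. With hybridisation run as a block these medians were -0.0073 and 0.057. Counts in gene lists are given against these backgrounds, and a list of mostly dim or mostly bright genes shares that drift. The groups did not overlap for 7.28% of genes on the higher and 5.21% on the lower side. Most list members named below were picked by smallest p, so lack of overlap in them is no separate support.

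The activity-regulated genes lay mostly above the sleeping flies. Of 15 measured, 13 had positive differences, sr among them; 6 were higher at an unadjusted p under 0.05 (4.43% of all genes were) and none was lower. The median difference was 0.18, against 0.01 over all genes. CG17778 is given above. puc, a phosphatase that restrains the kinase JNK, read 5.81, 6.38 and 6.03 in deprived against 5.56, 5.61 and 5.58 in sleeping flies, 0.49 ± 0.15 higher (limma, adjusted p = 0.505) with no overlap. CG14186 read 7.69, 6.45 and 7.77 against 6.64, 5.89 and 7.03, 0.78 ± 0.29 higher (adjusted p = 0.543). cbt (cabut), a zinc finger transcription factor, read 7.70, 7.05 and 8.02 against 7.24, 7.08 and 7.37, 0.36 ± 0.15 higher (adjusted p = 0.59). Hr38, the fly NR4A nuclear receptor, was dim, with 3.16, 2.82 and 3.02 against 2.77, 2.87 and 2.72, a difference of 0.22 ± 0.10. In the last 3 genes replicate 2 was the lowest deprived array and made the groups overlap.

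Without deprived replicate 2 all 15 had positive differences, 10 were higher at an unadjusted p under 0.05 (4.37% of all genes) and the median was 0.30. cbt then rose by 0.63 (limma, adjusted p = 0.0278). The other members were smaller: CG13055 0.20, CrebB 0.18, meng 0.15, Atf3 0.11, the AP-1 subunits Jra 0.10 and kay 0.03, CG8910 0.03, Ets21C -0.01 and CG14024 -0.16. The median of the list was 0.21 with run as a block. At the other times it was 0.14 at 4 h and 0.15 at 6 h, and it was 0.16 for stimulated minus wake flies.

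Cytosolic chaperones and their helpers lay mostly on the other side. Of 19 measured members of the Hsp70 and Hsp90 machinery, 15 had negative differences and 6 were lower at an unadjusted p under 0.05 (4.14% of all genes), with a median of -0.14. Hsp83, the Hsp90 gene of flies, and Hsp70 genes such as Hsp70Aa and Hsp70Ba were not among the members measured. Of related Hsp70 genes that were, Hsc70-2 (-0.14) and Hsc70-4 (-0.13) were negative, and Hsc70-1 (0.02) and Hsp68 (0.08) positive. None of these reached an unadjusted p under 0.05. The 4 measured members with the smallest p are helpers of the main chaperones. DnaJ-1, an Hsp40 protein, read 7.71, 7.01 and 7.93 in deprived against 8.31, 7.95 and 8.42 in sleeping flies, a difference of -0.67 ± 0.19 (limma, adjusted p = 0.476). CG1416, related to the Hsp90 activator Aha1, read 5.19, 5.68 and 5.63 against 6.35, 6.07 and 6.28, a difference of -0.73 ± 0.21. Stip1, which links Hsp70 to Hsp90, read 5.41, 5.58 and 5.90 against 6.37, 6.10 and 6.50, a difference of -0.69 ± 0.20. The groups did not overlap in any of the 3. p23, another Hsp90 partner, differed by -0.28 ± 0.10 and overlapped.

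The mean level of the list ran from 5.87 to 6.03 in deprived and from 6.07 to 6.21 in sleeping arrays. Its median stayed at -0.14 without replicate 2 and was -0.16 with run as a block. DnaJ-1 differed by -0.70 at 4 h and -0.95 at 6 h, CG1416 by -0.38 and -0.94, and Stip1 by -0.36 and -0.80. In stimulated minus wake flies each of these 3 genes differed by -0.36. Chaperones of the endoplasmic reticulum had negative differences in 19 of 20, with 1 lower at an unadjusted p under 0.05 and a median of -0.12, which was 0.055 with run as a block. All 20 were brighter than the median probe set. The 6 small heat shock proteins were all positive, between 0.08 and 0.19.

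Protein synthesis and turnover showed small negative medians. Of 32 aminoacyl-tRNA synthetases 23 had negative differences, 3 were lower at an unadjusted p under 0.05 (4.14% of all genes) and none was higher. They were LysRS, GlyRS (-0.28 ± 0.09) and AsnRS (-0.26 ± 0.09), and in each the groups did not overlap. Of 64 mitochondrial ribosomal proteins 59 had negative differences, with 2 lower at an unadjusted p and a median of -0.10. Without replicate 2, 25 were lower (5.99% of all genes) and the median was -0.25, whereas with run as a block it was 0.02. Proteasome subunits went from 1 of 30 lower to 13 without replicate 2, with a median of 0.0042 under the run block. aay, which makes serine from phosphoserine, read 6.81, 7.14 and 7.48 in deprived against 6.55, 6.54 and 6.53 in sleeping flies. That was 0.60 ± 0.14 higher (limma, adjusted p = 0.308), with no overlap, and it was 0.93 higher at 4 h and 0.55 at 6 h. slif, an amino acid transporter, differed by 0.18 ± 0.07.

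Antimicrobial peptides lay above the sleeping flies without passing the test. All 8 antimicrobial peptides measured had positive differences, none at an unadjusted p under 0.05, with a median of 0.24. Drs (Drosomycin, of the Toll pathway) read 6.72, 7.56 and 7.55 against 6.23, 6.42 and 6.69, a difference of 0.83 ± 0.52. DptB differed by 0.69 ± 0.43, Mtk by 0.53 ± 0.32 and AttD by 0.23 ± 0.11. The sleeping flies read lower than the ZT14 flies for Drs, whose ZT14 mean was 7.35. With run as a block the median of the list was -0.07, with DptB at -1.24, Mtk at -0.80 and AttD at -0.29. The medians were 0.48 at both 4 and 6 h and 0.67 for stimulated minus wake flies. Of 25 Toll and Imd recognition and signalling genes 17 had positive differences, with a median of 0.027. At an unadjusted p under 0.05, 3 were higher (4.43% of all genes). Without replicate 2, 11 were positive, none was higher, 2 were lower and the median was -0.036. Rel, through which the Imd pathway turns on its targets, differed by 0.35 ± 0.12, PGRP-SC2, which degrades peptidoglycan, by 0.38 ± 0.14, and cact, the inhibitor of the Toll pathway's factors, by 0.17 ± 0.08.

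Of 36 serpins and serine proteases of haemolymph 28 had positive differences and 5 were higher at an unadjusted p (4.43% of all genes). The median was 0.12, and -0.05 with run as a block. The serpins Spn28Dc (0.33), Spn42De (0.27), Spn47C (0.24) and Spn31A (0.24) led it, and their groups did not overlap. The cytochrome P450 list held 83 genes, but its members Cyp1 and Cyp40 are cyclophilins and not cytochrome P450 genes. In this list 4 genes were higher and 1 lower, where 4.43% and 4.14% of all genes were. The 1 lower was Cyp40 (-0.23), so no cytochrome P450 gene of the list was lower at an unadjusted p under 0.05. Among the higher were Cyp12d1-d (0.26) and Cyp6a21 (0.16), both dim. Of 49 genes of glutathione transfer and oxidative defence 4 were higher, among them GstD2 (0.27), and 1 was lower. That one was Gclm, a subunit of the enzyme that starts glutathione synthesis (-0.32). The median of this list was 0.033, and -0.028 without replicate 2. Fat body markers, a tissue that could adhere to a dissected brain, had positive differences in 11 of 12, with a median of 0.15 and a mean level from 6.94 to 7.43 in deprived and 6.90 to 7.20 in sleeping arrays. With run as a block the median was -0.083. Haemocyte markers were positive in 10 of 14 (median 0.069). Without replicate 2 they were positive in 4 of 14 (median -0.027), and the median with run as a block was -0.00016. Their part in the immune values was not tested.

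Genes of sleep and of neurons differed in both directions. Of 31 genes with published roles in fly sleep 15 had positive and 16 negative differences, with a median of -0.025. At an unadjusted p under 0.05, 1 was higher and 2 were lower (4.43% and 4.14% of all genes). Without replicate 2, 19 were positive, 6 were higher and 2 lower, with a median of 0.086, and the median was 0.10 with run as a block. The 2 lower with all arrays were Rdl, a GABA receptor, with 8.20, 6.995 and 7.65 against 8.11, 8.19 and 8.31 (-0.59 ± 0.22), and SerT, the serotonin transporter (-0.25 ± 0.11). In both the groups overlapped and replicate 2 was lowest. Replicate 2 was lowest in other genes of excitability as well. GluClalpha, a glutamate-gated chloride channel, read 7.002, 5.37 and 7.17 against 7.20, 7.30 and 7.18, with groups that narrowly did not overlap. For para, the voltage-gated sodium channel, the groups overlapped, with 4.99, 4.32 and 4.77 against 4.94, 5.01 and 5.23. RyR, the calcium release channel, differed by -0.42 ± 0.14 and Akap200, an anchor of protein kinase A, by -0.51 ± 0.15, both without overlap.

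The 11 neuronal markers had a median of -0.32, with 10 negative and 4 lower at an unadjusted p (4.14% of all genes). Without replicate 2 the median was -0.05 with none lower, and with run as a block it was -0.10. The median of these markers was -0.11 at 4 h and -0.43 at 6 h. elav, an RNA-binding protein of all neurons, read 5.72, 4.77 and 6.03 against 6.32, 6.15 and 6.34. Its relative fne read 7.92, 7.41 and 7.80 against 8.19, 7.97 and 8.11. The mean level of the neuronal markers ran from 5.86 to 6.83 in deprived and from 6.60 to 6.97 in sleeping arrays. Lists of synaptic vesicle genes (median -0.11), calcium signalling (-0.13) and ion channels (-0.05) were 0.054, 0.0061 and 0.045 without that array, and 0.17, 0.21 and 0.20 with run as a block. Glial markers were positive in 13 of 18, with a median of 0.05.

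Core clock genes differed in both directions. Of 13 members measured 5 had positive and 8 negative differences, with 1 higher and 1 lower at an unadjusted p (4.43% and 4.14% of all genes). Pdfr, the receptor of the clock neuropeptide PDF, read 4.66, 4.28 and 4.29 against 4.23, 4.06 and 4.15 (0.26 ± 0.10), with no overlap. Pdp1, an activator of Clk, read 7.40, 6.76 and 7.76 against 7.76, 7.47 and 7.89 (-0.40 ± 0.18). vri, a repressor of Clk, differed by -0.20 ± 0.11 and tim, the partner of period, by -0.16 ± 0.14. The median of the list was -0.089, and 0.083 with run as a block.

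Most eye markers lay below the sleeping flies, and none passed the adjusted threshold. Of 16 photoreceptor and eye markers 13 had negative differences, 6 were lower at an unadjusted p under 0.05 (4.14% of all genes) and none was higher, with a median of -0.21. Arr1, a photoreceptor arrestin, read 7.53, 8.23 and 7.46 in deprived against 8.65, 8.63 and 8.72 in sleeping flies, a difference of -0.93 ± 0.33 (limma, adjusted p = 0.543). trp, the light-activated calcium channel, read 5.02, 5.14 and 4.65 against 5.69, 5.56 and 6.19, a difference of -0.88 ± 0.33. rtp differed by -0.61 ± 0.20 and Pdh, a retinoid dehydrogenase of the eye, by -0.47 ± 0.16. In all 4 the groups did not overlap. The mean level of the list ran from 5.15 to 5.39 in deprived and from 5.51 to 5.67 in sleeping arrays. Against ZT14 the deprived flies had a median of -0.04 and the sleeping flies one of 0.20 (both share the ZT14 arrays). The list median was -0.28 without replicate 2 and -0.35 with run as a block. retinin, described above, is an eye gene as well, and how much eye tissue each pool carried was not tested.

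The remaining lists held few members at an unadjusted p under 0.05, where 4.43% of all genes were higher and 4.14% lower. None was found among 13 stress kinase and p53 genes (median 0.01), 8 bomanins (0.12, and -0.16 without replicate 2), 7 JAK-STAT and Turandot genes (-0.03), 8 mitochondrial chaperones (-0.09), 29 neuropeptides (-0.03), 15 monoamine receptors (0.06), 13 glycolytic genes (-0.10) and 37 cytosolic ribosomal proteins (-0.05). Of 71 genes of oxidative phosphorylation 1 was lower (-0.01), as was 1 of 45 translation factors (-0.09). Of 38 nucleolar genes of ribosome biogenesis 1 was higher and 2 were lower (-0.04). Of 20 insulin and nutrient genes 1 was higher (-0.0016), and of 27 lipid genes 2 were higher (0.07). Of 16 genes of monoamine synthesis and uptake 1 was higher and 1 lower (-0.0061), and of 19 cAMP pathway genes 2 were lower (0.0028), Akap200 among them. Transmitter receptors had 2 lower of 29 (-0.017). With run as a block the median turned positive for neuropeptides (0.22), glycolytic genes (0.077), cytosolic ribosomal proteins (0.018), oxidative phosphorylation (0.080), translation factors (0.039), insulin and nutrient genes (0.038), monoamine synthesis and uptake (0.0064) and transmitter receptors (0.17). It turned negative for stress kinase and p53 genes (-0.066). Without replicate 2 it turned positive for transmitter receptors (0.053) and monoamine synthesis and uptake (0.010). In that fit 7 cytosolic ribosomal proteins (median -0.15) and 6 nucleolar genes (-0.061) were lower at an unadjusted p under 0.05 (5.99% of all genes), and none was higher. Of the lipid genes 5 were then higher (4.37% of all genes) and 2 lower.

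Markers of other tissues had mostly positive differences. Antennal and chemosensory genes were positive in 129 of 161 (median 0.09) and were mostly dim, with 31 brighter than the median probe set. Tracheal and cuticle genes were positive in 70 of 77 (median 0.088, and -0.079 with run as a block), with 35 brighter. Muscle markers were positive in 17 of 20 (0.11, 10 brighter), gut and salivary markers in 26 of 30 (0.11, 12 brighter) and ovary and germline markers in 18 of 21 (0.08, 11 brighter).

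**Figure D4:**
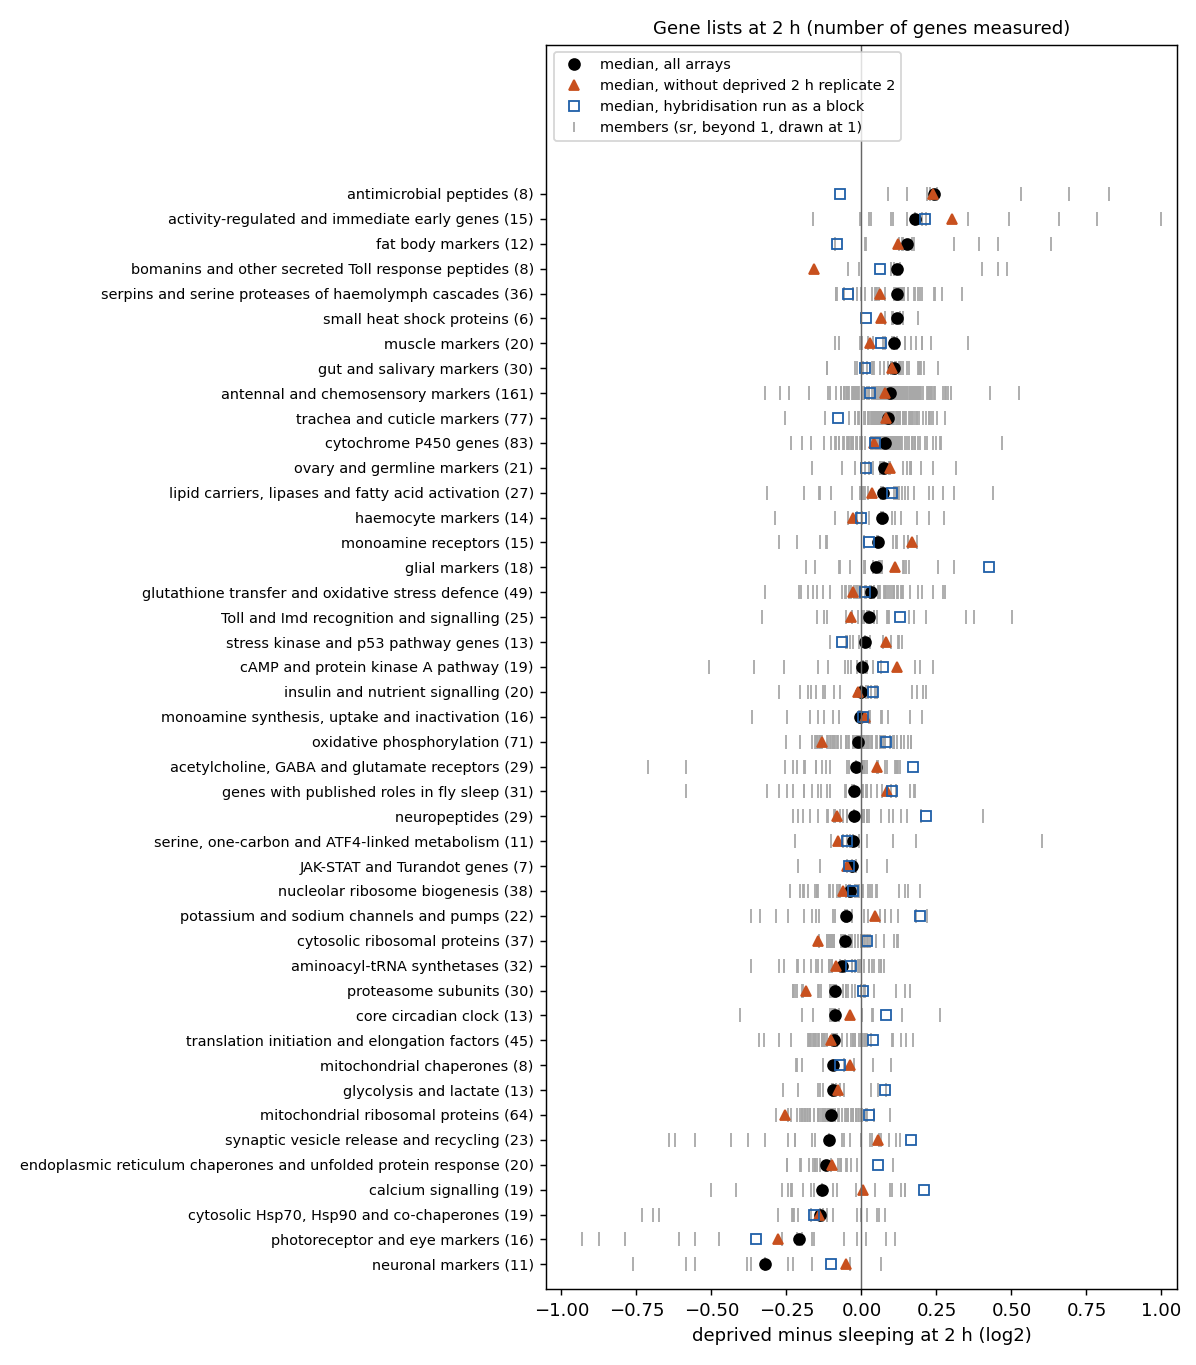
Differences at 2 h (deprived minus sleeping, log2) for the members of 44 gene lists (grey ticks) with the median of all arrays (black), without deprived replicate 2 (orange) and with hybridisation run as a block (blue squares). Activity-regulated genes, Hsp70 and Hsp90 co-chaperones and eye markers keep the side of their median in all 3. Other lists do so too, among them neuronal, glial, muscle, gut and salivary markers and aminoacyl-tRNA synthetases. Antimicrobial peptides, mitochondrial ribosomal proteins and synaptic vesicle genes do not. The cytochrome P450 list also holds the cyclophilins Cyp1 and Cyp40. No run held both 2 h groups, so the blocked medians rest also on other groups.

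Whether an effect was larger at 2 h than later was tested as the 2 h difference minus the mean of the 4 and 6 h differences. No probe set passed the adjusted threshold in limma (0%), and 474 (3.39%) had an unadjusted p under 0.05. The 5 smallest p-values belonged to Mat89Ba (0.44 ± 0.11), CG7860 (-0.70 ± 0.17), sr (0.80 ± 0.20), Lnpk, a shaper of the endoplasmic reticulum (-0.36 ± 0.09), and Mppe, a phosphoesterase that matures rhodopsin (-0.39 ± 0.10). All 20 genes named at 2 h had the same sign of difference at 4 and 6 h. Some were close to 0 later: CG15594 differed by 0.05 at 4 h and 0.03 at 6 h, and CG15745 by 0.19 and 0.14. Others stayed: Cdc7 differed by 0.45 and 0.40, and St3 by 0.43 and 0.31.

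**Figure D5:**
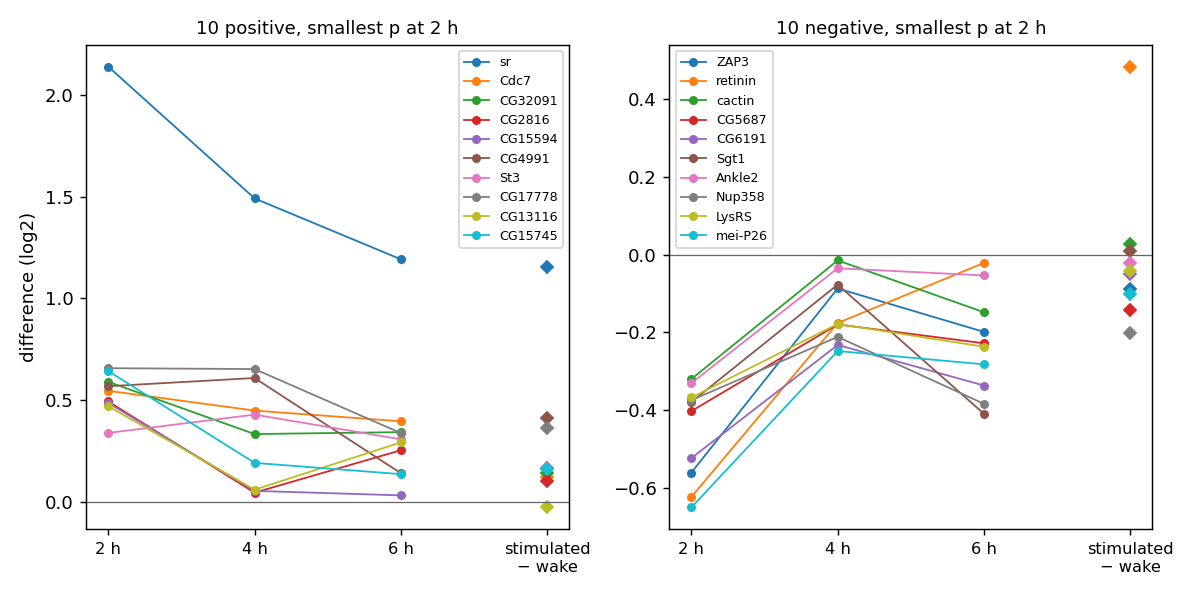
Deprived minus sleeping differences (log2) of the 20 named genes at 2, 4 and 6 h (joined points) and stimulated minus wake differences of the active period experiment (diamonds). The genes were chosen by their p at 2 h; sr falls from 2.14 to 1.19, and all 20 keep their sign at 4 and 6 h.

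Against the flies killed at ZT14, both 2 h groups were set side by side; these comparisons share the ZT14 arrays. In deprived flies 1 probe set passed, sr (0.00716%), and 1945 (13.9%) had an unadjusted p under 0.05. In sleeping flies none passed in limma (0%) and 280 (2.00%) had an unadjusted p under 0.05. All 3 sleeping arrays and 2 of the ZT14 arrays were hybridised in run 3, and no deprived 2 h array was. With run as a block the shares were 4.22% and 5.06%, and which of group and run the first pair of shares follows was not tested. In deprived flies the smallest p-values after sr were those of osy, an ABC transporter (0.60 ± 0.11), Prat2, of purine synthesis (-0.91 ± 0.17), Cdc7 (0.55 ± 0.11) and speck, which inactivates monoamines (-0.44 ± 0.09), with adjusted p of 0.133 to 0.14 in limma. In sleeping flies they were CG9377 (-0.80 ± 0.20), CG14238 (0.32 ± 0.08), Cpr72Ec (0.43 ± 0.11), Pdh (0.62 ± 0.16) and Cyt-c1L (0.26 ± 0.07).

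Active period stimulation changed 12 probe sets (0.0859%) in limma, and 982 (7.03%) had an unadjusted p under 0.05. sr was the 1 gene that passed at 2 h, and its handling effect is given above. CG4991 differed by 0.41, CG17778 by 0.36 and cbt by 0.38 in stimulated minus wake flies, with adjusted p between 0.248 and 0.575. Cdc7 differed by 0.12 and CG15745 by 0.16. Over all 13966 probe sets the differences at 2 h and those of stimulation, which share no array, correlated with Pearson r of 0.19 and Spearman rho of 0.05; this is across probe sets, which are not independent replicates.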

How the data were processed

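The deposited log2 values were computed by the authors with RMA, per the design text of the series: background is corrected, array quantiles are equalised and the probes of a set are summarised. Per the submitters' processing notes affy was used; its version is not given in the sources. Quantile normalisation hides a shift shared by most transcripts. Differences between dim signals can be compressed in RMA values. Other settings, such as chip lot and hybridisation run, were read from the deposited scanner files. Of 14010 probe sets 44 controls were left out. The platform annotation gives 12443 probe sets 1 symbol, 327 several and 1196 none; 12394 symbols were updated through RefSeq's gene table, which was used for names only.

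limma 3.58.1 in R 4.3.3 (lmFit, eBayes) was fitted to the 21 arrays of the deprivation experiment with 1 mean per group, which share 1 estimate of spread. Benjamini-Hochberg adjustment ran over 13966 probe sets, with a threshold of 0.05. The fit was tested on simulated data. Active period arrays were fitted apart, since a joint normalisation is not stated. The number of arrays limits the precision: with 3 against 3 an exact permutation test cannot go below 0.1. Named genes are the 10 smallest p-values per direction at 2 h, the 5 smallest in the other comparisons, up to 4 members per list and all activity-regulated genes. Cytosolic Hsp70 genes and Cyp1 are named besides. The 44 lists used the brightest probe set per gene. Members and lists were chosen with earlier results of these data known. Alternatives covered filters, normalisation, arrays fitted, variance, array weights, blocks for replicate number, lot, run and scan day, a 3' to 5' covariate, 1 probe set per gene, the study's Fs test with 100 permutations, a threshold of 0.1 and omitted arrays.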

Additional observations from a re-analysis of the deposited data

Results flagged for a closer look

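Each of the following genes lay on one side of the mean of its controls in every deprived 2 h array, in some arrays only slightly. In every treated array of another comparison it lay on the opposite side. The differences between comparisons were not tested for single pairs. The eye gene retinin differed by -0.62 at 2 h and by 0.48 in stimulated minus wake flies, and the photoreceptor channel gene trp by -0.88 and 0.41. Rdl differed by -0.59 at 2 h and by 0.20 with stimulation, and AsnRS by -0.26 and 0.16. Between 2 and 4 h of deprivation the sign turned for GluClalpha (-0.71 to 0.30), RyR (-0.42 to 0.050), para (-0.37 to 0.10), SerT (-0.25 to 0.080), Spn42De (0.27 to -0.10), Pdfr (0.26 to -0.18) and Cyp6a21 (0.16 to -0.091). In the test of the 2 h effect against the mean of 4 and 6 h none of these genes passed the adjusted threshold in limma. Replicate 2 was the lowest deprived 2 h array for Rdl, GluClalpha, para and SerT. Their 2 h differences shrank to as little as -0.28, -0.14, -0.18 and -0.11 when single 2 h arrays were left out.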

How the results depend on the processing

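sr was past the threshold in every setting tried, with differences from 2.05 to 2.19 when each 2 h array was left out. The count of probe sets past the threshold at 2 h was 1 with all arrays, and also 1 after each of these changes: the dimmer 6983 probe sets left out, renewed quantile normalisation, median centring, the 6 arrays or all 30 fitted, trended and robust variance, chip lot, hybridisation run or scan day as a block, 1 probe set per gene, a threshold of 0.1 and the Fs test. It was 2 with the 3' to 5' covariate (sr and Cdc7), 429 with array weights (225 higher, 204 lower; the weights ran from 0.27 for deprived 2 h replicate 2 to 6.80 for sleeping 2 h replicate 1), and 4 without both 2 h arrays of the largest 3' to 5' difference, an alternative chosen after seeing the data. Leaving out each array gave 1 to 5 calls at 2 h, 0 to 1 for the effect at 2 h against later and 1 to 6 for deprived flies against ZT14. The 5 calls without deprived 2 h replicate 2 were sr, CG15745, Cdc7, retinin and cbt; the 1 call for 2 h against later came without sleeping 2 h replicate 3, in a probe set with no gene name. Against ZT14 the counts were 2, 6 and 2 without deprived 2 h replicates 1, 2 and 3. Array weights gave 138 calls for 2 h against later, 550 for deprived flies against ZT14 and 278 for sleeping flies against ZT14. With all 30 arrays these counts were 1, 10 and 0, and with the 3' to 5' covariate 0, 3 and 0. Without both high 3' to 5' arrays they were 0, 7 and 0. In limma sleeping flies against ZT14 had 0 calls in every setting but array weights (280 probe sets had an unadjusted p under 0.05).

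Whether the replicate numbers of the titles pair the arrays was not settled. Deviations of same-numbered 2 h arrays correlated at -0.02, 0.44 and 0.41, and arrays of unlike number were not compared. With the replicate number as a block 1 probe set passed at 2 h, sr, at 2.14.

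Of the values of single named genes 28 changed sign, and the cause was not tested. With hybridisation run as a block these were Atf3 (-0.031), CG13055 (-0.11), CrebB (-0.18), CG14024 (0.0033), AttD (-0.29), Mtk (-0.80), DptB (-1.24), PGRP-SC2 (-0.0038), Spn42De (-0.16), p23 (0.035), Pdp1 (0.083), tim (0.031) and GluClalpha (0.33). CG14024 was 0.011 with array weights and 0.019 without both high 3' to 5' arrays, where Ets21C was 0.11, and kay was -0.0067 after renewed normalisation. With single arrays left out, CG14024 ran from -0.26 to 0.024, CG8910 from -0.13 to 0.30, Ets21C from -0.12 to 0.094 and kay from -0.14 to 0.26.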

Other observations

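Probe sets without a gene name held the largest negative differences at 2 h. One bright probe set read 8.65 on average in deprived and 10.2 in sleeping flies, a difference of -1.56 ± 0.36 (limma, adjusted p = 0.29), and another read 9.18 against 10.3, a difference of -1.08 ± 0.25 (adjusted p = 0.29). The smallest p among unnamed probe sets belonged to a dim one that read 3.65 against 3.23, 0.42 ± 0.09 higher (adjusted p = 0.22).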
